A study of Mus musculus with 26 samples.

Results

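In the mouse cathepsin family, 10 genes were examined, namely Ctsa, Ctsb, Ctsc, Ctsd, Ctse, Ctsh, Ctsk, Ctsl, Ctss and Ctsz. They were chosen by symbol, each symbol matched 1 Ensembl gene, and they are 10 of the 52636 genes listed in each library. RNA was sequenced in 26 libraries of bone marrow origin from wild-type mice and from Prss57-/- mice, which lack Neutrophil Serine Protease 4 (NSP4). Granulocyte-macrophage progenitors (GMPs, sorted as Lin- SCA-1- CD117+ CD34+ with high CD16/32) and common myeloid progenitors (CMPs, the same gate with low CD16/32) gave 4 libraries per genotype each, and bone marrow-derived mast cells (BMMCs, grown from sorted GMPs in IL-3 and SCF) gave 5 per genotype. The knockout was made in C57BL/6N embryonic stem cells by a deletion in exon 2, and wild-type mice were littermates. No age is given for the mice of these libraries. The GMPs and CMPs came from female mice and were sequenced in 1 run, whereas the BMMCs came from males and were sequenced apart. Wherever BMMCs are set against progenitors, sex, run, culture and cell type therefore cannot be told apart. The labels number the libraries but do not say which animals they came from, and p-values measure the spread between libraries. The BMMC libraries are labelled BMMC-P3, and the labels do not say whether P3 is a passage or a pool. The libraries held between 18627626 and 53264762 reads on genes.

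Cathepsins are proteases of lysosomes and of the lysosome-related granules of myeloid cells. They are made as inactive precursors, many travel to the lysosome by the mannose 6-phosphate route, and cystatins hold the cysteine class in check. Ctsc, also called dipeptidyl peptidase I, removes the N-terminal dipeptide that keeps several granule serine proteases of neutrophils, mast cells and cytotoxic lymphocytes inactive. NSP4 belongs to that group of substrates. Ctsb, Ctsh, Ctsk, Ctsl, Ctss and Ctsz are further cysteine proteases, Ctsd and Ctse are aspartic proteases, and Ctsa is a serine carboxypeptidase.

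The coding sequences are set out by this division. Each member was assigned to its class beforehand, and only the residue pattern of that class was searched for. For 9 members, the 30 coding bases around the catalytic residue are printed below from the GENCODE M21 transcripts (build GRCm38), 5′ to 3′. The codon of the catalytic cysteine, aspartate or serine is in capitals. For Ctse, which has a pair of catalytic aspartates, the window of the first is shown.
Ctsc, cysteine 257 of 462 codons, chr7:88302297-88308038, plus strand, across the junction of exons 5 and 6: caagaatcttgtggaagcTGCtactcattt
Ctsb, cysteine 108 of 339 codons, chr14:63135699-63136412, plus strand, across the junction of exons 4 and 5: cagggctcctgcggctctTGTtgggcattt
Ctsh, cysteine 139 of 333 codons, chr9:90064255-90064533, plus strand, across the junction of exons 5 and 6: cagggggcctgtggcagcTGCtggactttc
Ctsk, cysteine 139 of 329 codons, chr3:95501704-95502608, plus strand, across the junction of exons 4 and 5: cagggccagtgtggttccTGTtgggctttc
Ctsl, cysteine 138 of 334 codons, chr13:64367066-64367862, minus strand, across the junction of exons 4 and 5: cagggccagtgcgggtctTGTtgggcgttt
Ctss, cysteine 148 of 341 codons, chr3:95543160-95545359, plus strand, across the junction of exons 4 and 5: cagggttcttgtggtgccTGCtgggctttc
Ctsz, cysteine 94 of 306 codons, chr2:174438187-174438216, minus strand, in exon 2: ccacagtactgtggttccTGCtgggcccac
Ctse, aspartate 97 of 397 codons, chr1:131663353-131663382, plus strand, in exon 4: aacttcactgtcatctttGACaccggttca
Ctsa, serine 191 of 492 codons, chr2:164835225-164835254, plus strand, in exon 7: cttttcctgacaggagagAGCtatgctggc
Within the cysteine class, the window of Ctsc shared 14 to 19 of its 30 bases and that of Ctsz 15 to 19 with the windows of the other members, whereas Ctsb, Ctsk and Ctsl each shared 25 bases with the member most like them.

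The labels were first checked against genes that mark the cell types and against the deleted gene. Prss57 was read 18064 to 26556 times in the wild-type GMP libraries and 6 to 25 times in the Prss57-/- GMP libraries. In CMPs it was read 2261 to 3926 times in wild-type libraries and 1 time in each Prss57-/- library. BMMCs of both genotypes had almost none, with 2 to 27 reads in wild-type libraries and 0 in every Prss57-/- library. The 5 GMP and promyelocyte markers (Mpo, Elane, Prtn3, Fcgr3 and Cebpe) summed to 22078 nRPKM or more in every GMP library and to 7712 nRPKM or less in every CMP library. Here nRPKM is the authors' read count per gene, scaled for gene length and for a size factor of the library. All 7 mast cell markers were detected in all 10 BMMC libraries, with sums from 24887 to 74640 nRPKM.

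A few libraries stood apart from their groups, and calls of members that changed without them are given with and without them. Counts of markers and of other gene lists in GMPs against CMPs are given with all libraries only. Prss57-/- BMMC library 3 was the lowest of its group for 41.3% of the 13938 genes tested and the highest for 39.6%. Prss57-/- CMP libraries 1 and 2 were the lowest or highest of their group more often than libraries 3 and 4, with library 1 lowest for 37.2% and library 2 lowest for 38.8% of 14916 genes. Wild-type CMP library 3 was lowest of its group for 35.3% of them. GMP libraries were not ranked in this way. In Prss57-/- GMPs the sum of the neutrophil markers had a median of 1094 nRPKM and a maximum of 4813 nRPKM. In Prss57-/- CMP library 2, the 6 erythroid and megakaryocyte markers summed to 3751 nRPKM against 1565 to 1823 nRPKM in the other 3 Prss57-/- CMP libraries and 1578 to 2537 nRPKM in the wild-type CMPs, with Pf4 the most abundant at 2561 nRPKM.

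In wild-type progenitors, Ctsd and Ctsz, an exopeptidase of the cysteine class, had the highest levels per gene length of the family. In wild-type CMPs the medians were 167 nRPKM for Ctsd and 121 nRPKM for Ctsz, and the libraries of these genes did not overlap. Wild-type GMPs had the reverse order, with Ctsz at a median of 279 nRPKM and Ctsd at 164 nRPKM, again without overlap. Ctsc ranked seventh in GMPs and eighth in CMPs, and its share of the summed level of the family was 2.53% to 3.56% across the wild-type progenitor libraries. In BMMCs the sum over the family was about an order of magnitude higher, at 7734 ± 1065 nRPKM (SD, n = 5) in wild-type cells, compared with 746 ± 32.8 nRPKM (SD, n = 4) in wild-type GMPs and 529 ± 21 nRPKM (SD, n = 4) in wild-type CMPs. Ctsd alone made up 52.8% to 59.2% of that sum in wild-type BMMCs and 21.2% to 24.1% in wild-type GMPs. Ctsk, the collagen-degrading cathepsin of osteoclasts, was the lowest member in all 6 groups.

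**Figure D1:**
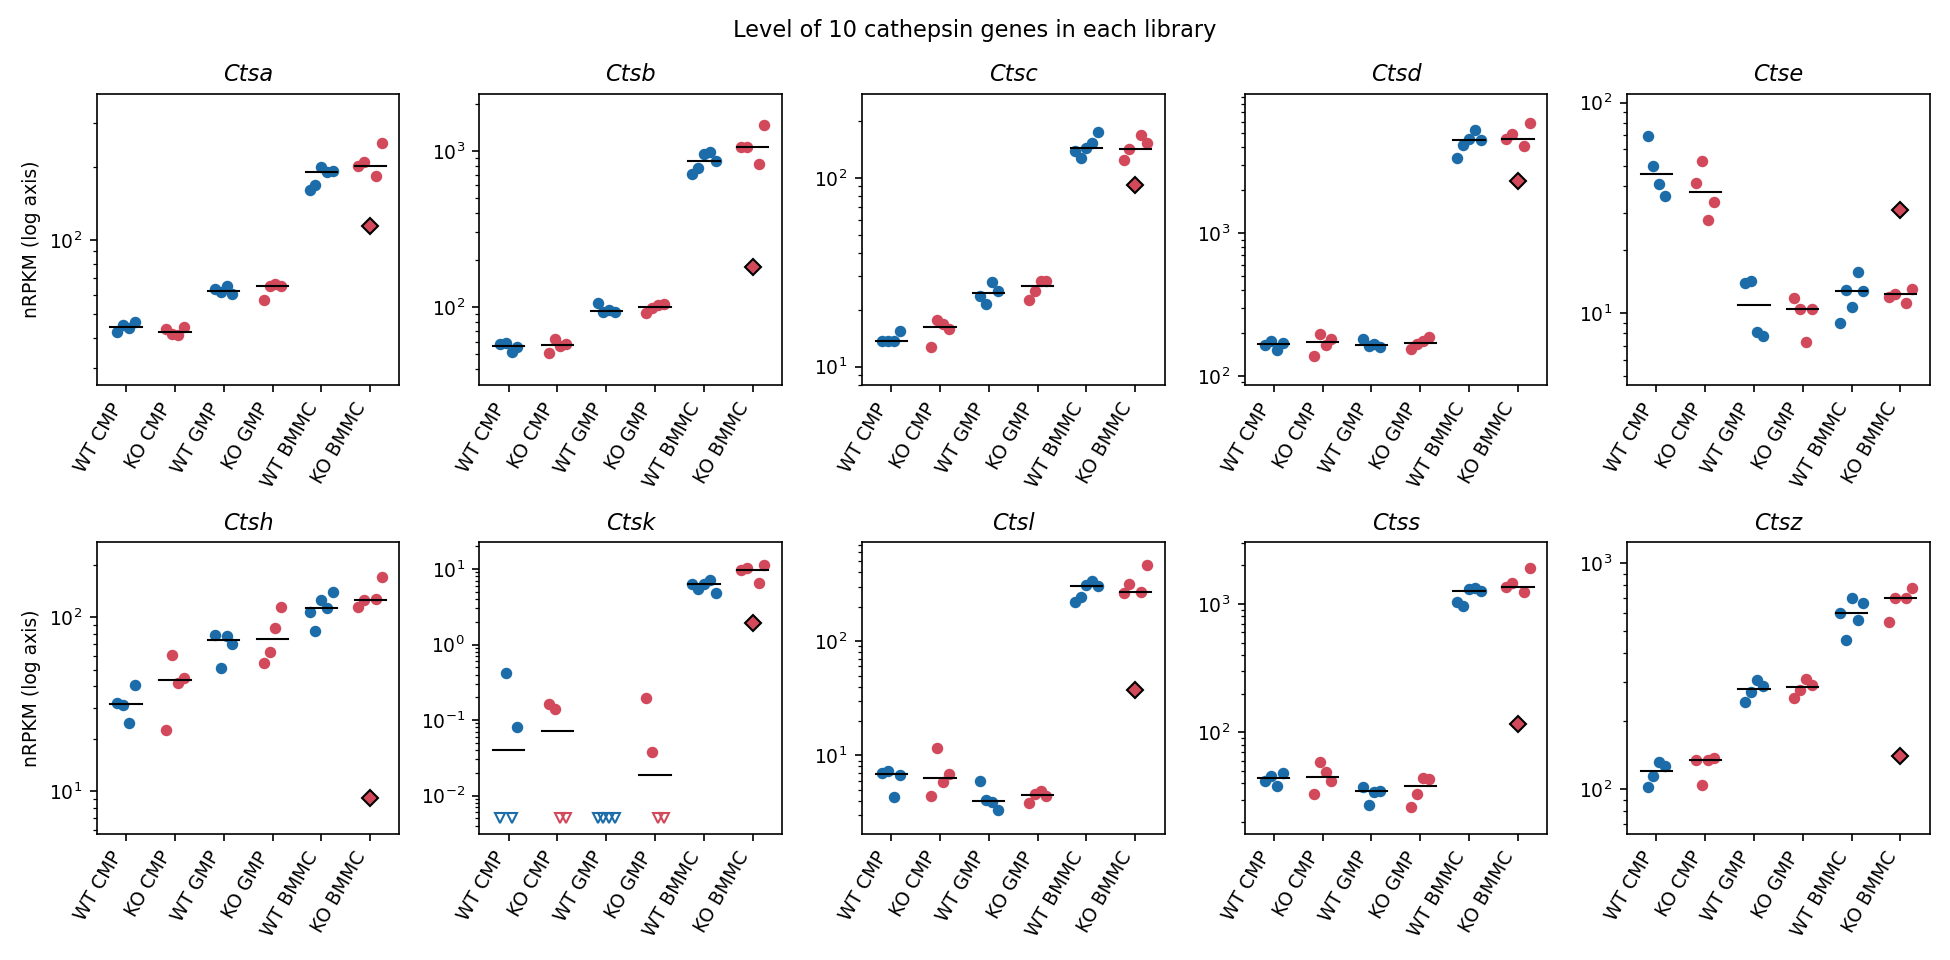
Level of each cathepsin gene in every library, in nRPKM on log axes, with 1 panel per gene. Points are libraries (blue wild-type, red Prss57-/-, labelled KO), bars are group medians, the diamond with a black edge is Prss57-/- BMMC library 3, and open triangles at the foot of the Ctsk panel mark libraries with 0 reads. The medians of Ctsa, Ctsb, Ctsc, Ctsh and Ctsz step up from CMPs to GMPs to BMMCs, and those of Ctsl and Ctss are lowest in GMPs. Ctsk is at or near 0 in all progenitor groups, which cannot be ordered for it. Ctse is highest in CMPs, and the progenitor groups overlap for Ctsd.

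Ctsc, the activator of several granule serine proteases, had the same order in both genotypes, with CMPs lowest, GMPs above them and BMMCs highest. The wild-type CMP libraries 1 to 4 had 13.6, 13.7, 13.6 and 15.4 nRPKM, and the wild-type GMP libraries had 23.6, 21.3, 27.9 and 25.2 nRPKM. The Prss57-/- CMP libraries had 12.8, 17.6, 16.8 and 15.8 nRPKM, and the Prss57-/- GMP libraries had 22.4, 25.2, 28.4 and 28.6 nRPKM. Every GMP library was therefore above every CMP library, while the genotypes overlapped within each cell type. Ctsc was at 138, 127, 143, 154 and 175 nRPKM in the wild-type BMMC libraries 1 to 5, and at 125, 142, 91.7, 169 and 153 nRPKM in the Prss57-/- BMMC libraries. All BMMC libraries lay above all progenitor libraries, with library 3 the lowest of the Prss57-/- BMMCs. These values rested on 2636 to 7536 reads per progenitor library and 8354 to 25257 reads per BMMC library, and the antisense transcript annotated inside Ctsc, Gm26522, had at most 1 read.

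The comparison of GMPs with CMPs asks how the family changes between these neighbouring progenitors, and the members divided into those that rose, those that fell and those that did not pass the test. Among wild-type libraries, 9 members had enough reads to be tested, of which 5 were higher in GMPs, where 19% of all 14967 genes tested were higher, and 2 were lower, where 18.8% of all genes were lower. Every adjusted p below comes from the quasi-likelihood test of edgeR unless another tool is named, was adjusted by Benjamini-Hochberg over the genes tested in that comparison, and was called when under 0.05. Ctsz rose by a log2 fold change of 1.23 (SE 0.12, adjusted p = 3.94e-05), the largest rise of the family in this comparison. Nelfcd overlaps Ctsz on the opposite strand and had 2768 to 4663 reads in wild-type CMPs and 3338 to 4938 in wild-type GMPs, beside 6853 to 12063 and 16503 to 23631 for Ctsz, and whether counting used the strand is not stated. Fdft1 overlaps Ctsb in the same way, with 214 to 358 reads in wild-type CMPs beside 10660 to 15348 for Ctsb. Ctsh, an aminopeptidase of the cysteine class, rose by 1.14 on the log2 scale (SE 0.18, adjusted p = 0.000781). Ctsc rose by 0.82 on the log2 scale (SE 0.11, adjusted p = 0.000295), which is 1.76-fold. Ctsb, a major lysosomal endopeptidase and dipeptidase, rose by the same log2 fold change of 0.82 (SE 0.09, adjusted p = 8.98e-05). In a fit of all 26 libraries, which shares 1 estimate of spread with the BMMCs, the calls of Ctsb (log2 fold change 0.80, adjusted p = 0.0559) and Ctsh (1.12, adjusted p = 0.0643) were lost, as was that of Ctss (-0.37, adjusted p = 0.510). Ctsa, which also shields neuraminidase and beta-galactosidase in the lysosome, rose by 0.51 on the log2 scale (SE 0.09, adjusted p = 0.00140).

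Ctse moved against these members. This non-lysosomal aspartic protease of endosomes was at 69.1, 50.1, 41.2 and 36.1 nRPKM in wild-type CMPs and at 13.9, 14.1, 8.09 and 7.76 nRPKM in wild-type GMPs. Each CMP library was above each GMP library. Ctse had a log2 fold change of -2.14 (SE 0.26, adjusted p = 0.000144), or 4.42-fold lower in GMPs. Ctsd, the other aspartic protease, overlapped, with 151 to 175 nRPKM in CMPs and 159 to 182 nRPKM in GMPs of wild-type mice. The log2 fold change of Ctsd was 0.04 (SE 0.09, adjusted p = 0.763), with a 95% interval by the normal approximation from -0.14 to 0.22. The cysteine endopeptidases Ctsl and Ctss had log2 fold changes below 0. For Ctss, which processes the invariant chain of MHC class II, the wild-type values were 42.1, 45.8, 38.2 and 48.5 nRPKM in CMPs and 37.8, 27.3, 34.5 and 35.1 nRPKM in GMPs, separated only by the narrow gap between 38.2 and 37.8 nRPKM. Its log2 fold change of -0.36 (SE 0.13) had an adjusted p of 0.0491, which lost the call with RLE size factors (adjusted p = 0.0562), with no low-count filter (0.110) and without any 1 of 6 of the 8 libraries. Ctsl did not pass (log2 fold change -0.54, SE 0.21, adjusted p = 0.0617), though it passed in DESeq2 (adjusted p = 0.0388), without wild-type GMP library 1 (0.00668) and without wild-type CMP library 3 (0.0105), where 8 members were called in place of 7 and 48.7% of genes in place of 37.8%. Separate ranges of the CMP and GMP libraries were found for 7 of the 9 members and for 31.5% of all genes tested.

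The Prss57-/- progenitors, which share no library with the wild-type comparison, gave values close to these. Of the 9 members tested, 4 were higher in GMPs, where 10.6% of all 14959 genes were higher, and 1 was lower, where 10.9% of all genes were lower. The log2 fold changes of GMPs over CMPs were 1.18 for Ctsz (SE 0.17, adjusted p = 0.00115), 0.85 for Ctsb (SE 0.14, adjusted p = 0.00295), 0.78 for Ctsc (SE 0.16, adjusted p = 0.00774) and 0.62 for Ctsa (SE 0.14, adjusted p = 0.0113). Ctse fell by 1.91 on the log2 scale (SE 0.22, adjusted p = 0.000509). Ctsh had a log2 fold change of 0.96 (SE 0.32, adjusted p = 0.0606), with 22.5, 61.0, 42.1 and 44.6 nRPKM in Prss57-/- CMPs and 54.4, 63.3, 86.3 and 115 nRPKM in Prss57-/- GMPs. CMP library 2 alone made these groups overlap, and without it Ctsh passed the test (log2 fold change 1.16, adjusted p = 0.0257). Ctsh also passed without CMP library 1 (log2 fold change 0.76, adjusted p = 0.0431). With all libraries it passed in DESeq2 (0.94, adjusted p = 0.0214) and with no low-count filter (0.99, adjusted p = 0.0478). Without Prss57-/- CMP library 1, 7 members and 45.5% of 15204 genes were called, in place of 5 members and 21.5% of genes, and Ctsl was the other member gained, called lower (log2 fold change -0.80, adjusted p = 0.0177). Ctsl, Ctss and Ctsd did not pass with all libraries, at log2 fold changes of -0.64, -0.27 and 0.05. Without Prss57-/- CMP library 2 they did not pass either, with Ctsl at -0.34 (adjusted p = 0.191), Ctss at -0.14 (0.664) and Ctsd at 0.11 (0.574). Separate ranges were found for 5 of the 9 members and for 28.5% of all genes. The medians over the members tested were 0.51 in wild-type and 0.62 in Prss57-/- libraries on the log2 scale, beside -0.02 and -0.03 over all genes tested.

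Markers of other myeloid cells changed between CMPs and GMPs along with the cathepsins. Among wild-type libraries, 5 of 6 neutrophil markers were higher in GMPs, as were 4 of 4 eosinophil and basophil markers and 5 of 6 mast cell markers tested, whereas 6 of 6 erythroid and megakaryocyte markers were lower. Some of these, such as Cma1 (0 reads in wild-type CMPs), Ly6g (11 reads over the 4 wild-type CMP libraries) and Ltf (15 reads), had so few reads in CMPs that they passed the low-count filter through the GMPs, and the counts are given as a description. The neutrophil sum was 12.2 to 31.3 nRPKM in wild-type CMPs and 1369 to 3098 nRPKM in wild-type GMPs, led by S100a8 and S100a9. The eosinophil and basophil sum went from 33.3 to 85.7 nRPKM in wild-type CMPs to 3464 to 4187 nRPKM in wild-type GMPs, led there by Prg2. Of 6 macrophage markers tested 3 were higher and 3 lower, with a sum of 25.7 to 33.7 nRPKM in wild-type CMPs and 42.7 to 60.3 nRPKM in wild-type GMPs, led by Csf1r, with Vsig4 at 0 in all 4 CMP and 3 of 4 GMP libraries. Of 6 dendritic cell markers tested 2 were lower, with a sum of 107 to 125 nRPKM in CMPs and 39.9 to 75.5 nRPKM in GMPs. In Prss57-/- libraries 5 of 6 neutrophil, 4 of 4 eosinophil and basophil, 6 of 7 mast cell and 2 of 6 macrophage markers were higher, and 6 of 6 erythroid and megakaryocyte and 1 of 6 dendritic cell markers were lower. Their part in the levels of the cathepsins was not tested.

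**Figure D2:**
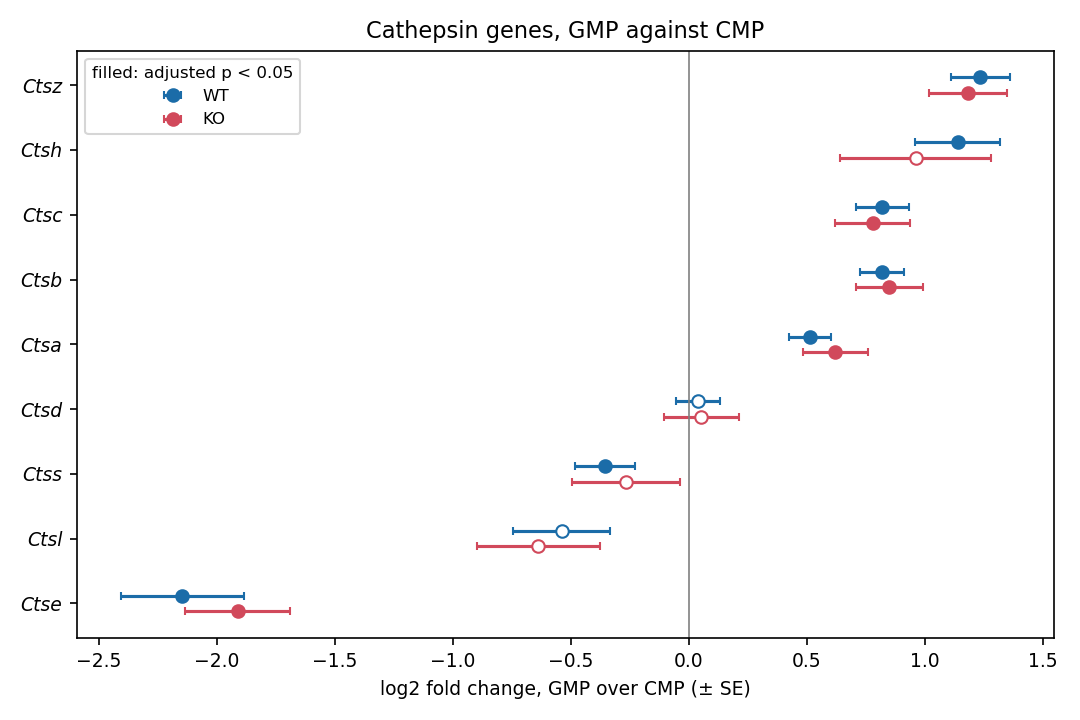
Log2 fold change of GMPs over CMPs for the 9 cathepsin genes tested, in wild-type (blue, 4 against 4 libraries) and Prss57-/- (red, labelled KO, 4 against 4 libraries) mice. Points are edgeR estimates with bars of 1 SE, filled where the adjusted p was under 0.05. Ctsz, Ctsh, Ctsc, Ctsb and Ctsa lie to the right of 0, Ctsd near 0, and Ctse far to the left, at -2.14 and -1.91.

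Several substrates of Ctsc were higher in GMPs. Of 11 genes listed as proteases that Ctsc activates, 6 were tested in each genotype and 6 were called higher, where 19% of all genes tested were higher in wild-type and 10.6% in Prss57-/- libraries. Elane, Prtn3, Ctsg, Gzmb and Cma1 were tested in both genotypes, Prss57 in wild-type and Tpsb2 in Prss57-/- libraries alone. Cma1 and Tpsb2, with 0 to 5 reads per CMP library, passed the low-count filter through the GMPs, so the count of 6 is given as a description. Elane, neutrophil elastase, went from 650 nRPKM in wild-type CMPs to 8488 nRPKM in wild-type GMPs (log2 fold change 3.72, SE 0.40, adjusted p = 6.60e-05). Gzmb, granzyme B, had a log2 fold change of 4.82 (SE 0.36, adjusted p = 6.06e-06), and Prss57 itself one of 2.66 (SE 0.24, adjusted p = 2.19e-05). Cma1, a mast cell chymase, was at 0 reads in all wild-type CMP libraries and at least 236-fold higher in wild-type GMPs, taking 3 reads over the 4 CMP libraries as the floor. In Prss57-/- progenitors Cma1 had 1 read over the 4 CMP libraries and 85 to 486 reads per GMP library, the tryptase Tpsb2 had 5 reads over the CMPs and 34 to 204 per GMP library, and Gzmb had a log2 fold change of 4.44 (adjusted p = 0.000444). The tryptases Tpsb2 and Tpsab1 are near-identical copies, and reads may be divided between them. Whether Ctsc activates these tryptases was not tested, and they are counted as listed genes only. The markers of neutrophils, eosinophils, basophils and mast cells described above rose in the same comparison, and their part in the levels of the substrates was not tested.

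Other genes of the lysosomal pathway moved in both directions. Of 10 further lysosomal proteases and their partners, 4 were higher and 3 lower in wild-type GMPs, where 19% of all genes were higher and 18.8% lower. Neu1, the neuraminidase that Ctsa protects, rose (log2 fold change 2.10, SE 0.15, adjusted p = 3.68e-06), as did the aspartic protease Napsa (1.17, SE 0.13, adjusted p = 7.75e-05), whereas Lgmn, the asparaginyl endopeptidase that processes several cathepsin precursors, fell (-1.93, SE 0.22, adjusted p = 8.39e-05). In Prss57-/- libraries 4 were higher and 2 lower, where 10.6% of all genes were higher and 10.9% lower, led by Neu1 (1.69), Lgmn (-1.41) and Napsa (1.00). Of 9 genes for sorting to lysosomes, 5 were higher and 1 lower in wild-type GMPs and 2 were higher and 1 lower in Prss57-/- GMPs, beside the same shares of all genes. Sort1, the receptor sortilin, rose by a log2 fold change of 1.52 in each genotype, and Igf2r, the large mannose 6-phosphate receptor, had -1.46 in wild-type and -1.22 in Prss57-/- libraries. Nagpa, which uncovers the mannose 6-phosphate signal, rose by 0.90 and 0.88 on the log2 scale. Of 8 inhibitors, 3 were tested and only Cst7, cystatin F, was called, higher in GMPs by 1.85 in wild-type and 1.65 in Prss57-/- libraries on the log2 scale. Of 13 other cathepsins, 4 were tested, with Ctsg higher (2.00 in wild-type, 1.44 in Prss57-/-), Ctso lower (-1.03 and -1.13) and the lymphoid Ctsw lower in wild-type libraries (-2.51, adjusted p = 0.000270), while Ctsw did not pass in Prss57-/- libraries (-1.46, adjusted p = 0.0909).

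Across the 16 progenitor libraries, the genes whose log2 CPM followed Ctsc most closely were Cd14 (Pearson r = 0.987), Adgre1 (0.986), Rhob (0.983), Ethe1 (0.982) and Cyp4f18 (0.980), of 15899 genes compared. All 5 were higher in GMPs of both genotypes, with wild-type log2 fold changes from 1.04 for Ethe1 to 2.86 for Cd14. The closest members of the family were Ctsb (0.960), Ctsz (0.941), Ctsh (0.930) and Ctsa (0.925), and Ctse ran opposite to Ctsc (-0.968). The libraries share a run and form 2 cell types, so that these correlations largely restate the step from CMPs to GMPs and are given without a test.

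Loss of Prss57, the gene whose product Ctsc processes, was compared with wild-type in each cell type, and no cathepsin gene was called in any of them. In GMPs, 0 of 9 members tested were called, where 0.0136% of all 14689 genes were called, namely Prss57 and Palm. In CMPs the count was 0 of 9, where 0.0067% of 14916 genes were called, and in BMMCs 0 of 10, where 0% of 13938 genes were called. At an unadjusted p under 0.05, edgeR had 119 genes in GMPs, 76 in CMPs and 332 in BMMCs, with 0 members in each. The count in CMPs was 561 without Prss57-/- library 1 and 211 without Prss57-/- library 2, with 1 member each (Ctsh at a log2 fold change of 0.56 and Ctse at -0.53), and 103 with 0 members without wild-type library 3, while 1 gene and 0 members were called at an adjusted p under 0.05 each time. DESeq2 called 5 genes in GMPs (0.034%), 5 in CMPs (0.0335%) and 0 in BMMCs, and limma voom called 2, 1 and 0, again with 0 members.

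The genotypes overlapped for every member in every cell type. Of all genes tested, 0.994% had separate ranges in GMPs, 0.818% in CMPs and 0.717% in BMMCs, so that a count of 0 members is near the background. For Ctsc the log2 fold change of Prss57-/- over wild-type was 0.09 in GMPs (SE 0.12), 0.14 in CMPs (SE 0.14) and -0.12 in BMMCs (SE 0.16). The 95% intervals by the normal approximation ran from -0.14 to 0.33 in GMPs, from -0.14 to 0.42 in CMPs and from -0.43 to 0.20 in BMMCs. Across members, the log2 fold changes lay between -0.13 and 0.19 in GMPs and between -0.36 and 0.38 in CMPs, at the ends for Ctse and Ctsh in both cell types. Leaving out 1 library at a time gave -0.53 to -0.15 for Ctse and 0.16 to 0.56 for Ctsh in CMPs. BMMCs gave wider errors, with SEs of 0.16 to 0.54 and log2 fold changes from -0.12 for Ctsc to 0.40 for Ctsk. Whether the genotype effect differed between GMPs and CMPs was tested by the interaction term, which passed for 0 of 9 members, where 0% of 15900 genes were called and 169 had an unadjusted p under 0.05 (DESeq2 and limma voom also called 0 genes). Its 95% interval ran from -0.40 to 0.29 for Ctsc and was widest for Ctsh, from -0.93 to 0.54, and differences within these bounds were not resolved. Without Prss57-/- CMP library 1 the unadjusted count was 475, without Prss57-/- CMP library 2 it was 209 and without wild-type CMP library 3 it was 196, where Ctsk, with 0 reads in wild-type GMPs, was also tested and was the 1 member among them, and 0 genes were called each time.

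**Figure D3:**
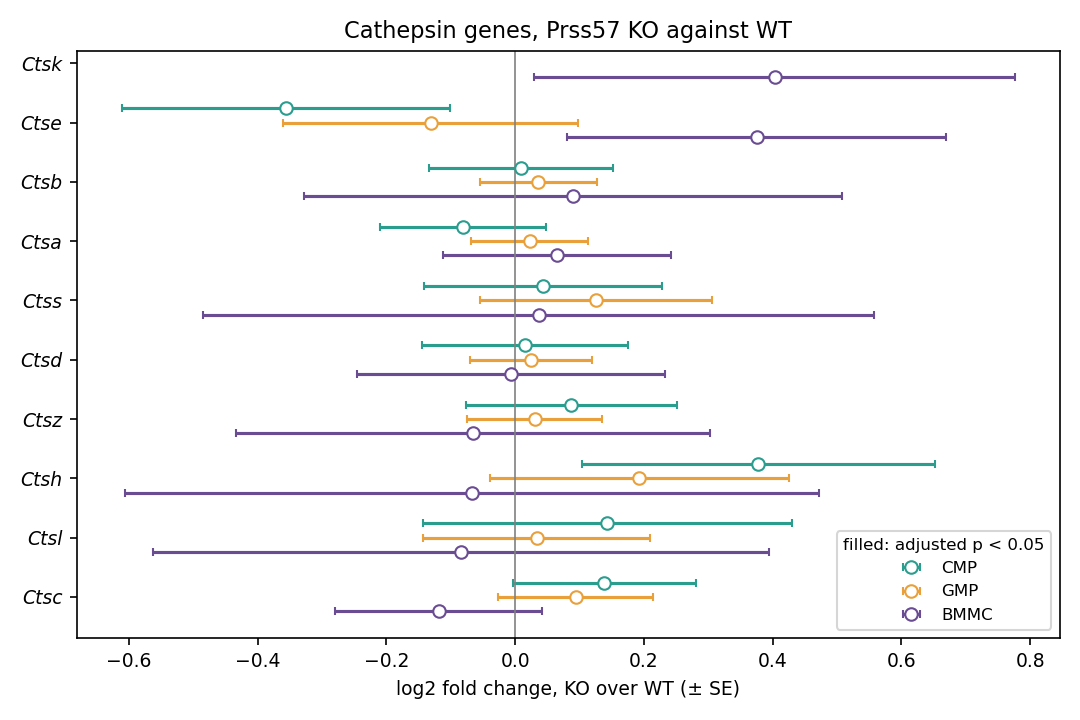
Log2 fold change of Prss57-/- over wild-type for each cathepsin gene in CMPs (green) and GMPs (orange), 4 against 4 libraries each, and in BMMCs (purple), 5 against 5. Points are edgeR estimates with bars of 1 SE, all open because none had an adjusted p under 0.05. Most estimates lie within 0.2 of 0, and the bars are longest in BMMCs.

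In BMMCs the family stood at other levels than in the GMPs from which such cells are grown, with cell type, culture, sex and run changing together. Among wild-type libraries 9 of 10 members were higher in BMMCs, where 40.8% of 14754 genes were higher, and 0 were lower, where 40.8% of genes were lower and 81.5% were called in either direction. Separate ranges were found for 9 of the 10 members and for 75.3% of all genes tested. Ctsk, with 0 reads in the 4 wild-type GMP libraries, is among the 9 and passed the low-count filter through the BMMCs. These counts of members are therefore given as a description. The median over the 10 members was 2.77 on the log2 scale, beside 0.00 over all genes tested. Ctsk set at its lower bound is still the largest of the 10, so that setting cannot move the median. In bulk RNA, fewer cells of a type and less RNA per cell cannot be told apart. Markers of macrophages and dendritic cells were higher in the same comparison, with 7 of 7 macrophage markers tested and 4 of 5 dendritic cell markers tested called higher and 1 of the latter lower. Marco, a macrophage marker with 0 reads in the 4 wild-type GMP libraries, passed the low-count filter through the BMMCs. Of 7 mast cell markers tested 6 were higher, with a sum of 30833 to 46376 nRPKM in wild-type BMMCs and 512 to 641 nRPKM in wild-type GMPs. Of 5 GMP and promyelocyte markers 4 were lower, as were 4 of 4 eosinophil and basophil markers. Neutrophil markers gave 2 higher and 4 lower, and erythroid and megakaryocyte markers 3 higher and 3 lower. The macrophage sum was 1056 to 1362 nRPKM in wild-type BMMCs, led by C1qb, and 42.7 to 60.3 nRPKM in wild-type GMPs, and the dendritic cell sum was 825 to 1492 nRPKM, led by Cd74, and 39.9 to 75.5 nRPKM. In Prss57-/- libraries 6 of 7 macrophage markers were called higher (7 of 7 without BMMC library 3) and 4 of 5 dendritic cell markers. The part of any of these cell types in the rise of the cathepsins was not tested.

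Among the members with reads in all wild-type GMP libraries, Ctsl and Ctss had the largest differences. Ctsl, a broad lysosomal endopeptidase, was at 3.31 to 5.97 nRPKM in wild-type GMPs and at 221, 245, 312, 339 and 307 nRPKM in wild-type BMMCs (log2 fold change 5.94, SE 0.23, adjusted p = 3.68e-10). Ctss was at 967 to 1324 nRPKM in wild-type BMMCs against 27.3 to 37.8 nRPKM in wild-type GMPs (log2 fold change 5.04, SE 0.16, adjusted p = 9.07e-11), so the groups were far apart. Ctsk had 0 reads in all 4 wild-type GMP libraries and 162 to 240 reads in wild-type BMMCs, where it was at least 644-fold higher, with 3 reads over the GMP libraries as the floor. Even there its level stayed at 4.88 to 7.06 nRPKM, the lowest of the family. Ctsd reached 3347, 4121, 4545, 5269 and 4479 nRPKM in wild-type BMMCs (log2 fold change 4.61, SE 0.15, adjusted p = 1.26e-10), and was the most abundant member in each library. Ctsb had a log2 fold change of 3.05 (SE 0.13, adjusted p = 6.27e-10), Ctsc one of 2.49 (SE 0.12, adjusted p = 2.74e-09), Ctsa one of 1.45 (SE 0.09, adjusted p = 2.35e-08), Ctsz one of 1.02 (SE 0.13, adjusted p = 1.08e-05) and Ctsh one of 0.61 (SE 0.16, adjusted p = 0.00406), a call that the fit of all 26 libraries lost (0.62, adjusted p = 0.197). Ctse alone did not pass, at 8.94 to 15.6 nRPKM in BMMCs and 7.76 to 14.1 nRPKM in GMPs (log2 fold change 0.06, SE 0.21, adjusted p = 0.813). For Ctsa, Pltp on the opposite strand overlaps the gene and was read 2440 to 3592 times in wild-type BMMCs against at most 11 times in wild-type GMPs. Since it is not stated whether counting used the strand, reads of the pair may not be fully separated.

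Prss57-/- libraries gave 7 of 10 members higher in BMMCs than in GMPs, where 37.7% of 14929 genes were higher, and 0 lower, where 36.2% were lower and 73.9% were called in either direction. Their ranges were separate for 7 of 10 members and for 65% of all genes. The log2 fold changes were 6.80 for Ctsk, 5.83 for Ctsl, 4.95 for Ctss, 4.58 for Ctsd, 3.11 for Ctsb, 2.29 for Ctsc and 1.5 for Ctsa, with adjusted p-values from 7.19e-07 for Ctsd to 0.000327 for Ctsb. The estimate for Ctsk rested on 21 reads in all over the Prss57-/- GMP libraries, 18 of them in library 1, without which its log2 fold change was 8.85. Ctsk thus passed the low-count filter through the BMMCs, and the counts of members in this comparison, with or without BMMC library 3, are given as a description. Ctsz (0.93, adjusted p = 0.0578), Ctsh (0.36, adjusted p = 0.607) and Ctse (0.57, adjusted p = 0.132) did not pass. Without BMMC library 3, 9 of 10 members were higher, where 40.1% of 14894 genes were higher, 40.2% lower and 80.3% called in either direction. Ctsz was then at 1.19 (adjusted p = 3.52e-06) and Ctsh at 0.66 (adjusted p = 0.0143), and Ctse, at 0.18 (adjusted p = 0.246), was the only member not called.

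Prss57-/- BMMC library 3 was the lowest of its group for 9 of the 10 members and the highest for Ctse. Ctsh was at 9.11 nRPKM there and at 83.9 to 170 nRPKM in the other 9 BMMC libraries, which is below every GMP and CMP library as well. The same library had Ctss at 116 nRPKM, against 967 to 1897 nRPKM in the other 9. Ctsl was at 37.4 nRPKM against 221 to 461 nRPKM. These 3 genes were 13.9-fold, 12.1-fold and 7.82-fold lower in library 3 than the median of the other 4 Prss57-/- BMMC libraries. Ctsb (5.90-fold), Ctsk (5.18-fold) and Ctsz (4.99-fold) followed, and Ctsd (2.05-fold), Ctsa (1.79-fold) and Ctsc (1.61-fold) differed least. Ctse was at 30.9 nRPKM in library 3 and at 8.94 to 15.6 nRPKM in the other 9.

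Markers of other cell types also set library 3 apart. Of the 8 macrophage markers, 7 were detected in every BMMC library and Vsig4 was at 0 in all 10. Their sum was 109 nRPKM in Prss57-/- library 3 and 1056 to 1667 nRPKM in the other 9, with the complement gene C1qb the most abundant at 36.4 nRPKM in library 3 and 387 to 606 nRPKM in the others. The wild-type GMPs had a sum of 42.7 to 60.3 nRPKM, most of it Csf1r. The 7 dendritic cell markers summed to 70.9 nRPKM in library 3 and to 825 to 1785 nRPKM in the other 9, led by Cd74, with Siglech at 0 in 9 of the 10 libraries and Cd209a and Flt3 at or near 0. Neutrophil markers summed to 35.6 nRPKM against 132 to 293 nRPKM, and eosinophil and basophil markers to 113 nRPKM against 309 to 615 nRPKM. The sums of GMP and promyelocyte markers (353 against 332 to 508 nRPKM) and of erythroid and megakaryocyte markers (1156 against 849 to 1181 nRPKM) lay within the other 9. The mast cell markers summed to 74640 nRPKM in library 3 and to 24887 to 46376 nRPKM in the other 9, led by Cpa3 and Tpsb2, although 1 of the 7, Hdc, was the lowest of its group in library 3, at 88.6 nRPKM against 135 to 150.1 nRPKM. Set beside the GMP libraries of both genotypes, library 3 was above the highest of them for Ctsa, Ctsb, Ctsc, Ctsd, Ctse, Ctsk, Ctsl and Ctss, with Ctsc at 91.7 nRPKM against at most 28.6 nRPKM. It was below the lowest of them for Ctsz, at 141 nRPKM against 243 to 308 nRPKM, and for Ctsh, at 9.11 nRPKM.

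Without library 3, the genotype comparison in BMMCs still called 0 of 10 members and 0 of 14162 genes, while 1031 genes and 3 members (Ctsk, Ctsb and Ctss) had an unadjusted p under 0.05. The log2 fold change of Prss57-/- over wild-type was then above 0 for 8 of 10 members, with a median of 0.20 beside -0.01 over all genes tested. Ctsk was at 0.65 (SE 0.16), Ctsb at 0.36 (SE 0.16), Ctss at 0.33 (SE 0.14), and Ctsc at -0.01 (SE 0.11), and the lowest adjusted p of the family was 0.422, for Ctsk. The macrophage marker sum was 1056 to 1362 nRPKM in the 5 wild-type BMMC libraries and 1360 to 1667 nRPKM in the 4 remaining Prss57-/- libraries, and its part in these values was not tested.

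**Figure D4:**
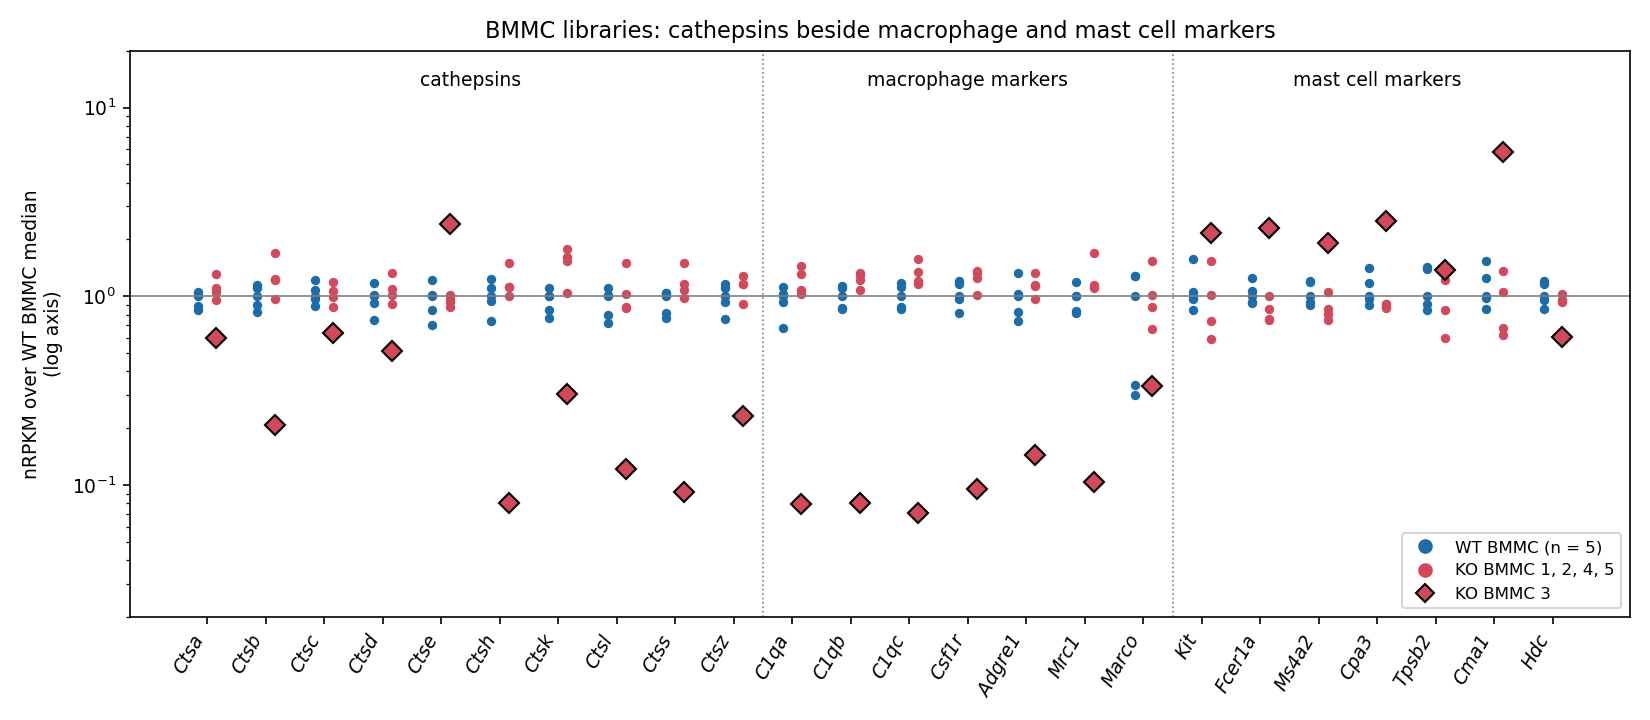
Level of 10 cathepsin genes, 7 macrophage markers and 7 mast cell markers in each BMMC library, divided by the wild-type BMMC median of the gene and shown on a log axis. Blue points are the 5 wild-type libraries, red points are Prss57-/- libraries 1, 2, 4 and 5, and the diamond with a black edge is Prss57-/- library 3. The diamond lies near 0.1 for Ctsh, Ctsl, Ctss and most macrophage markers, nearer to 1 for Ctsa, Ctsc and Ctsd, and above 1 for Ctse and for 6 of the 7 mast cell markers.

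Substrates of Ctsc were found in both directions between BMMCs and GMPs. Of the genes listed as proteases that Ctsc activates, 10 were tested among wild-type libraries. In BMMCs 6 were higher and 4 lower, where 40.8% of all genes were higher and 40.8% lower. The tryptases Tpsab1 and Tpsb2 are among the 6, and their activation by Ctsc was not tested. Tpsab1, a tryptase, had 0 reads in all GMP libraries of both genotypes and was at least 61101-fold higher in wild-type BMMCs and at least 50731-fold higher in Prss57-/- BMMCs. It passed the low-count filter through the BMMCs, as Tpsb2 did among wild-type libraries. The counts of listed genes in this comparison are therefore given as a description in both genotypes. Elane fell from 8488 to 0.255 nRPKM, and Tpsb2 rose from 0.751 to 17611 nRPKM. In the Prss57-/- libraries 9 were tested, with 6 higher and 3 lower, where 37.7% of all genes were higher and 36.2% lower. Tpsab1 was at 13.4 nRPKM in Prss57-/- BMMC library 3 and at 513 to 1178 nRPKM in the other Prss57-/- BMMCs, while Cma1 was at 14490 nRPKM there and at 1565 to 3407 nRPKM in the others.

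Among the 10 lysosomal proteases and their partners, 6 were higher and 1 lower in BMMCs of each genotype, where 40.8% of all genes were higher and 40.8% lower in wild-type and 37.7% higher and 36.2% lower in Prss57-/- libraries. Lgmn had a log2 fold change of 6.65 in wild-type and 6.24 in Prss57-/- libraries, Psap, the precursor of the saposins and a carrier of Ctsd, 3.52 and 3.47, and the tripeptidyl peptidase Tpp1 2.38 and 2.30. Of the 9 sorting genes, 2 were higher and 3 lower in wild-type BMMCs, beside the same shares. Igf2r rose from 0.255 to 16.1 nRPKM in wild-type libraries (log2 fold change 5.88, SE 0.20, adjusted p = 1.62e-10), and Sort1 (-0.86) and Gga2 (-0.60) were lower. In Prss57-/- libraries 1 was higher, Igf2r at 5.65, and 1 lower, Gga2 at -0.52. Without library 3, 3 were lower, Sort1 among them at -0.64 (adjusted p = 0.00398). Of 3 inhibitors tested, Cstb, the cytosolic stefin B, was higher (2.12 in wild-type, 1.98 in Prss57-/-), and Cst3 (-0.46) and Cst7 (-0.36) were lower in wild-type BMMCs. In Prss57-/- libraries Cst3 was at -0.42 (adjusted p = 0.0519) and Cst7 at -0.20 (adjusted p = 0.424), and without library 3 both were called lower, at -0.47 (adjusted p = 0.0234) and -0.45 (adjusted p = 0.000662). Among the other cathepsins, Ctsg was lower (-2.60 and -2.65) and Ctso higher (1.4 and 1.5) in BMMCs of both genotypes, and without library 3 Ctsf (0.43, adjusted p = 0.0318) and Ctsw (-1.58, adjusted p = 0.0483) were called as well in Prss57-/- libraries. Within Prss57-/- BMMC library 3, Lgmn (6.16-fold), Psap (8.67-fold), Scpep1 (12.5-fold), Igf2r (9.61-fold) and Sort1 (14.6-fold) were lower than the median of the other 4 Prss57-/- libraries, whereas Cst3 and Glb1 were the highest of the group.

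The promoters of the members were also searched for the E-box that MiT family transcription factors bind at lysosomal genes. The 6-base motif CACGTG, a palindrome that reads the same on both strands, was looked for in RefSeq promoters of GRCm38.p6, which run from 250 bases before to 50 bases after the RefSeq start of a gene. Entries were found for 7 of the 10 members, not for Ctsb, Ctse and Ctsh. Of the 7, Ctsa, Ctsd and Ctsl held the motif, beside 8.09% of the 27025 genes with an entry. The matches are shown in capitals within 30 bases of the gene's strand.
Ctsa, chr2:164833749-164833778, plus strand, motif 12 bases before the start of the entry: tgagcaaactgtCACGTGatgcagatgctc
Ctsa, chr2:164833766-164833795, plus strand, motif 5 bases after the start of the entry: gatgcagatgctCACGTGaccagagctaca
Ctsd, chr7:142387908-142387937, minus strand, motif 98 bases before the start of the entry: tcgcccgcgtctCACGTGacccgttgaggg
Ctsd, chr7:142388048-142388077, minus strand, motif 245 bases before the start of the entry: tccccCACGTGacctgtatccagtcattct
Ctsl, chr13:64370739-64370768, minus strand, motif 236 bases before the start of the entry: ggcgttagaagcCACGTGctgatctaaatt
Both Ctsa matches and the nearer Ctsd match lie within the longer form TCACGTGA, which 1.12% of genes held. Ctsa has 2 promoter entries, and both of its matches lie in the downstream one (chr2:164833523-164833822), while the other (chr2:164832622-164832921) held none. The starts of the RefSeq entries with a match lie downstream of the GENCODE M21 gene starts, by 900 bases for Ctsa, 211 for Ctsd and 370 for Ctsl. Counted from the GENCODE starts, the Ctsa matches lie 888 and 905 bases after the start, the Ctsd matches 113 bases after it and 34 bases before it, and the Ctsl match 134 bases after it. In addition, the motif was not seen in the windows of Ctsc, Ctsk, Ctss and Ctsz. Members with the motif and members without it were both called higher in wild-type BMMCs than in wild-type GMPs. A match is a description of the sequence, binding was not measured, and the part of the motif in these levels was not tested.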

How the data were processed

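RNA was measured with a stranded total RNA kit, read as 50-base single ends. As deposited by the authors, each library lists a read count per gene, of reads uniquely aligned to its gene model, and an nRPKM. Per the labels and the study's methods, alignment used GSNAP in HTSeqGenie against GRCm38, and whether counting used the strand is not given in the sources used here. The nRPKM values of the authors (RPKM with a size factor in place of the library total) equalled count divided by a gene constant and a size factor. One protocol label names brain cells, which are not the cells of these samples.

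Counts were tested with edgeR 4.0.16 (R 4.3.3; quasi-likelihood, TMM, filterByExpr, robust) within the groups compared, adjusted over all genes tested. SE is the log2 fold change over the root of F. DESeq2 1.42.0, limma 3.58.1 voom, other filters and scalings, a replicate block and leaving out each library were tried. On simulated data with 200 changed genes, 195 were found for Prss57-/- against wild-type GMPs, 182 for CMPs, 184 for BMMCs and 149 for the interaction of genotype and cell type. False calls numbered 4, 9, 5 and 5 in the same order. Whether differences as small as those of the members between genotypes would be found was not tested. Named were the 10 members, Prss57, the 5 genes most correlated with Ctsc (log2 of CPM + 1, 16 progenitor libraries), and up to 3 called genes of each list with the largest change. Other genes were named after their values were seen. Members and lists were chosen with earlier results of these data known. One sequence window is not reported here.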

Additional observations from a re-analysis of the deposited data

Results flagged for a closer look

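Of 59 groups of member values tested for a single far library (Dixon's test at the 95% level, which chance passes in about 5% of groups), 5 held one. Ctse was highest in Prss57-/- BMMC library 3, at 30.9 nRPKM against 11.16 to 12.96 nRPKM in the other 4. Ctsz was lowest in Prss57-/- CMP library 2, at 105.0 nRPKM against 134.7 to 137.3 nRPKM. Ctsc was highest in wild-type CMP library 4, at 15.4 nRPKM against 13.6 to 13.7 nRPKM. Ctsl was lowest in wild-type CMP library 3, at 4.34 nRPKM against 6.79 to 7.28 nRPKM. Ctsa was lowest in Prss57-/- GMP library 1, at 56.8 nRPKM against 65.1 to 66.4 nRPKM. The cause of these values was not tested.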

How the results depend on the processing

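No member called in a comparison changed direction under any alternative tried, and no setting called a member for genotype. For genes called between genotypes, the 2 in GMPs became 5 in DESeq2, 1 at an adjusted p under 0.01 with a 2-fold change, 1 with all 26 libraries in 1 fit, 1 with the replicate block and 0 with at least 10 counts in every library, a filter that removes Prss57, and the 1 in CMPs became 5 in DESeq2 and 0 with that filter. Leaving out a library gave 1 to 2 genes in GMPs, 1 in CMPs and 0 in BMMCs. For GMPs against CMPs, the stricter threshold gave 3 members and 1918 genes for wild-type mice, and 2 members and 1259 genes for Prss57-/- mice. For the latter, DESeq2 called 5074 genes, the fit of all libraries 6577, and leaving out a library 1891 to 6924, highest without CMP library 1. For BMMCs against GMPs the stricter threshold gave 7630 genes for wild-type and 7150 for Prss57-/- mice. The causes were not tested.

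Estimates that were not called changed sign. Between genotypes, with no filter, Ctsb was at -0.0076 and Ctsd at -0.0024 in CMPs, and with at least 10 counts Ctsd was at 0.0020 in BMMCs. With limma voom, Ctsb was at -0.22 and Ctss at -0.46 in BMMCs, and with the replicate block they were at -0.11 and -0.23. For Ctsh in Prss57-/- BMMCs against GMPs, voom gave -0.058 and the replicate block -0.15. The interaction for Ctsd was -0.0055 in DESeq2 and -0.0056 with RLE factors. Leaving out each library gave genotype ranges in GMPs of -0.019 to 0.080 for Ctsd, -0.25 to 0.024 for Ctse, -0.035 to 0.35 for Ctsh, -0.064 to 0.23 for Ctsl and -0.023 to 0.090 for Ctsz, and in CMPs of -0.049 to 0.039 for Ctsb, -0.055 to 0.080 for Ctsd, -0.17 to 0.29 for Ctsl and -0.096 to 0.14 for Ctss. In BMMCs they were -0.046 to 0.20 for Ctsa, -0.14 to 0.36 for Ctsb, -0.14 to 0.15 for Ctsd, -0.016 to 0.48 for Ctse, -0.28 to 0.23 for Ctsh, -0.36 to 0.20 for Ctsl, -0.18 to 0.33 for Ctss and -0.20 to 0.19 for Ctsz. The interaction ranged over -0.0069 to 0.080 for Ctsb, -0.12 to 0.035 for Ctsc, -0.061 to 0.067 for Ctsd, -0.40 to 0.013 for Ctsh, -0.26 to 0.20 for Ctsl, -0.038 to 0.23 for Ctss and -0.16 to 0.0057 for Ctsz. Ctsd ranged over -0.026 to 0.11 in Prss57-/- GMPs against CMPs, and Ctse over -0.081 to 0.20 in wild-type BMMCs against GMPs.

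Replicate numbers were not taken as pairs, since that required deviations to correlate above 0.1 in every pair. Between genotypes they did in 2 of 4 pairs in GMPs, 3 of 4 in CMPs and 1 of 5 in BMMCs, and between GMPs and CMPs in 2 of 4 wild-type and 3 of 4 Prss57-/- pairs (-0.014 to 0.72), and a partly shared source was not tested. With the replicate block, the wild-type call of Ctss in GMPs against CMPs was lost (adjusted p = 0.0548), and Ctsl in wild-type (0.0309) and Ctsh in Prss57-/- libraries (0.0234) passed. The fit of all 26 libraries also lost the wild-type calls of Ctsb (0.80), Ctsh (1.12) and Ctss (-0.37) in GMPs against CMPs and of Ctsh (0.62) in BMMCs against GMPs, each with a larger SE than in the separate fits, and Ctsz in Prss57-/- BMMCs passed in that fit, in DESeq2 and with RLE factors.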
